A study of Mus musculus with 4 samples.

Results

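The chemokine genes Cxcl1, Cxcl2, Cxcl3, Ccl3 and Ccl4 were followed through single macrophages and monocytes of the mouse colon. The 5 genes are rows of a table of 12596 genes and were chosen by symbol, as the ligands that attract neutrophils and the Ccl3/Ccl4 pair, after results of these data had been seen. Their levels are therefore given as a description. The cells came from the lamina propria of the colon of male wild-type C57/Bl6N mice, sorted as CD11b+ and either Ly6C+ or CD64+. Mice 14 and 15 had received diesel exhaust particles (DEP, 12 µg in 200 µL of PBS) by gavage on 5 days per week for about 6 months, and mice 2 and 3 had received PBS alone. Age was not given in the labels. Each mouse filled 1 well of a droplet assay that tags each captured RNA molecule with a barcode, the unique molecular identifier (UMI). Mouse and well cannot be told apart. Nothing marked replicates beyond the mouse, so p-values measure the spread between 2 mice per group. The table held 943 cells, namely 189 of mouse 14, 334 of mouse 15, 200 of mouse 2 and 220 of mouse 3. The median cell held between 2758 and 4684 UMIs, and both ends of this range were PBS mice.

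Chemokines are small secreted proteins that guide leukocytes along a gradient through G protein-coupled receptors. CXCL1, CXCL2 and CXCL3 bind CXCR2, the receptor by which neutrophils leave the blood, and macrophages release them soon after a microbial or inflammatory signal. CCL3 and CCL4 (macrophage inflammatory proteins 1α and 1β) draw monocytes, T cells and natural killer cells, and CCL3 acts on CCR1. All 5 are early response genes that NF-kB can induce, and colon macrophages live next to a dense microbiota.

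In the GRCm38 genome (mm10) the genes form a pair of clusters. Cxcl3 (ENSMUSG00000029379), Cxcl1 (ENSMUSG00000029380) and Cxcl2 (ENSMUSG00000058427) lie in this order on the plus strand of chromosome 5, at 90786103 to 90789600, 90891241 to 90893115 and 90903871 to 90905938. Ccl3 (ENSMUSG00000000982) at 83647844 to 83649355 on the minus strand and Ccl4 (ENSMUSG00000018930) at 83662584 to 83664683 on the plus strand are neighbours on chromosome 11. RefSeq promoters of build GRCm38.p6 were matched for 4 of the genes. The starts used below are those of these promoters and differ from the gene coordinates given above. The stretch from 110 to 29 bases before each start is printed 5′ to 3′ because the 3 Cxcl genes share a run of letters that the text returns to. Capitals mark GGAATTTCC, which has the form of an NF-kB motif.
Cxcl1 (chr5:90891135-90891216, plus strand): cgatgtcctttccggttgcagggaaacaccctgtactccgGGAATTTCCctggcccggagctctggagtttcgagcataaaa
Cxcl2 (chr5:90903789-90903870, plus strand): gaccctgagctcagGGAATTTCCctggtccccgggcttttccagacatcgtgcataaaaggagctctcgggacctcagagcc
Cxcl3 (chr5:90785991-90786072, plus strand): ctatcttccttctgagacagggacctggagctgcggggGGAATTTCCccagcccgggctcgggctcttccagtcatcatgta
Ccl3 (chr11:83649407-83649488, minus strand): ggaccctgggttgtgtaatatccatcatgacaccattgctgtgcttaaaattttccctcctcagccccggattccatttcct
The motif was searched on both strands over 250 bases before and 50 bases after each start. It began 70 bases before the start of Cxcl1, 96 before that of Cxcl2 and 72 before that of Cxcl3, and these letters were not in the window of Ccl3. Of all 32851 promoters of this length, 104 (0.317%) held GGAATTTCC or its reverse complement GGAAATTCC. The longest run of letters shared within the printed stretches was 14 bases between Cxcl1 and Cxcl2, 11 bases between Cxcl3 and either of them, and 7 bases between Ccl3 and any Cxcl gene. These matches describe the letters only.

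Cxcl2 and Ccl4 were among the most abundant transcripts of these cells. Over all cells Cxcl2 gave 19500 UMIs and ranked 22 among 12596 genes, and Ccl4 gave 18424 UMIs and ranked 26. Ccl3 followed with 8173 UMIs (rank 73), Cxcl1 with 1676 UMIs (rank 318) and Cxcl3 with 210 UMIs (rank 2096). The assay counts transcript ends, so that these levels were not scaled by gene length. As UMIs per 1000000 UMIs of a mouse (CPM), the mean over the 4 mice was 4580 ± 1275 (SD, n = 4) for Cxcl2 and 4406 ± 993 for Ccl4, which did not differ beyond their spread. Ccl3 stood at 1942 ± 367 CPM, Cxcl1 at 388 ± 164 CPM and Cxcl3 at 53.2 ± 29.7 CPM, and no mouse broke the order of these lower 3 genes.

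The genes also differed in how their UMIs were spread over cells. The 10% of cells with the most Cxcl1 UMIs held between 64.3% and 74.2% of all Cxcl1 UMIs of a mouse, and the median cell of every mouse held 0. For Cxcl2 the top 10% held between 37.7% and 48.8%, for Ccl3 between 38.7% and 43.9%, and for Ccl4 between 41.9% and 49.3%. The highest single cells held 63 UMIs of Cxcl1, 170 of Cxcl2, 7 of Cxcl3, 102 of Ccl3 and 237 of Ccl4. Cxcl1 thus came mostly from a minority of cells, whereas Cxcl2, Ccl3 and Ccl4 had a median of at least 4 UMIs per cell in each mouse.

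Among the CXCR2 ligands, Cxcl1 reached 167 CPM in DEP mouse 14 and 532 CPM in DEP mouse 15, against 488 CPM in PBS mouse 2 and 364 CPM in PBS mouse 3. The DEP mice lay on either side of the PBS mice. Cxcl2 reached 2803 and 5362 CPM in DEP mice 14 and 15 against 5631 and 4522 CPM in PBS mice 2 and 3. Mouse 14 was again the lowest, and mouse 15 lay between the PBS mice. Cxcl3 was at 29.4 and 34.8 CPM upon DEP, from 28 and 47 UMIs, against 95 and 53.7 CPM upon PBS, from 71 and 64 UMIs. Cxcl3 was the only 1 of the 5 genes for which both DEP mice lay below both PBS mice over all cells. This held for 18.9% of the 5582 genes tested over all cells.

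For the Ccl pair, Ccl3 reached 1593 and 2158 CPM in DEP mice 14 and 15 and 2344 and 1672 CPM in PBS mice 2 and 3. Ccl4 reached 3521 and 4819 CPM upon DEP and 5616 and 3669 CPM upon PBS. For both genes mouse 14 was the lowest, mouse 2 the highest, and the groups overlapped. Mouse 14 was thus the lowest for each of the 5 genes. It also had the lowest summed level of 36 NF-kB early response genes (11260 CPM, against 13100 to 15650 CPM in the other mice) and of 23 immediate early and heat shock genes (23740 CPM, against 28830 to 31670 CPM). The enzymatic digestion at 37 °C can itself induce such genes, and the part of it in these levels was not tested.

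Most cells held several of the genes. A UMI of at least 3 of the 5 was found in 58.7% and 63.5% of the cells of DEP mice 14 and 15 and in 74.5% and 75.5% of those of PBS mice 2 and 3. All 5 were found together in 4.76% and 7.49% of the cells upon DEP and in 9.50% and 10.0% upon PBS. No UMI of any was found in between 2% and 5.82% of the cells of a mouse. These counts were not adjusted for depth.

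**Figure D1:**
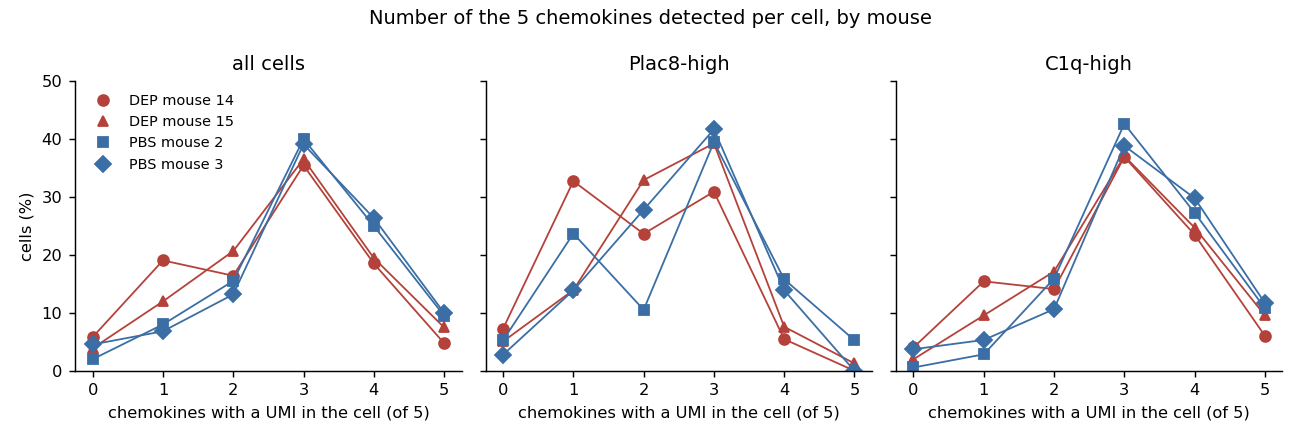
Percentage of cells (y axis) by the number of the 5 chemokine genes with a UMI (x axis), with 1 line per mouse, over all cells, Plac8-high cells and C1q-high cells. Cells with 3 of the genes were the most frequent class over all cells of each mouse, and all 5 were found in 4.76% to 10.0% of cells.

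To set aside depth, the share of cells with a UMI was calculated at 1000 UMIs per cell. Cxcl2 was then found in 55.8% and 69.2% of the cells of DEP mice 14 and 15 and in 79.2% and 72.6% of those of PBS mice 2 and 3. Ccl4 was found in 62.7% and 69.8% against 76.1% and 67.5%, and Ccl3 in 51.7% and 58.0% against 67.4% and 59.4%. Cxcl1 was found in 10.6% and 19.9% against 22.2% and 18.4%, and Cxcl3 in 2.09% and 2.98% against 6.31% and 4.95%. Without this adjustment the pooled shares were 81.3% for Cxcl2, 82.2% for Ccl4, 76.2% for Ccl3, 31.5% for Cxcl1 and 15% for Cxcl3.

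Free RNA in droplets gives a low share in cells that do not express a gene. B lineage cells in the same table served as a rough reference for it. These were 12 cells with at least 3 B lineage markers (secreted immunoglobulin genes not counted) that were not C1q-high. They held a median of 3866 UMIs, and some were Plac8-high. The median cell of a mouse held 2758 to 4684 UMIs. Of these 12 cells, 1 held a Cxcl1 UMI (8.33%), 4 held Cxcl2 (33.3%), 3 held Ccl3 (25.0%), 4 held Ccl4 (33.3%) and 0 held Cxcl3, which allows a share of up to 25.0%. By gene, the top 2 of these cells held 31 of the 33 Cxcl2, 37 of the 38 Ccl3 and 57 of the 59 Ccl4 UMIs. With UMIs so concentrated, these cells do not give an even background level. At 1000 UMIs per cell the shares were 0.370% for Cxcl1, 14.2% for Cxcl2, 14.9% for Ccl3 and 16.2% for Ccl4. The shares of all cells were above these for Cxcl1, Cxcl2, Ccl3 and Ccl4 in each of the 4 mice. The same held in Plac8-high cells except for Cxcl1 in mouse 3, at 0.332%.

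**Figure D2:**
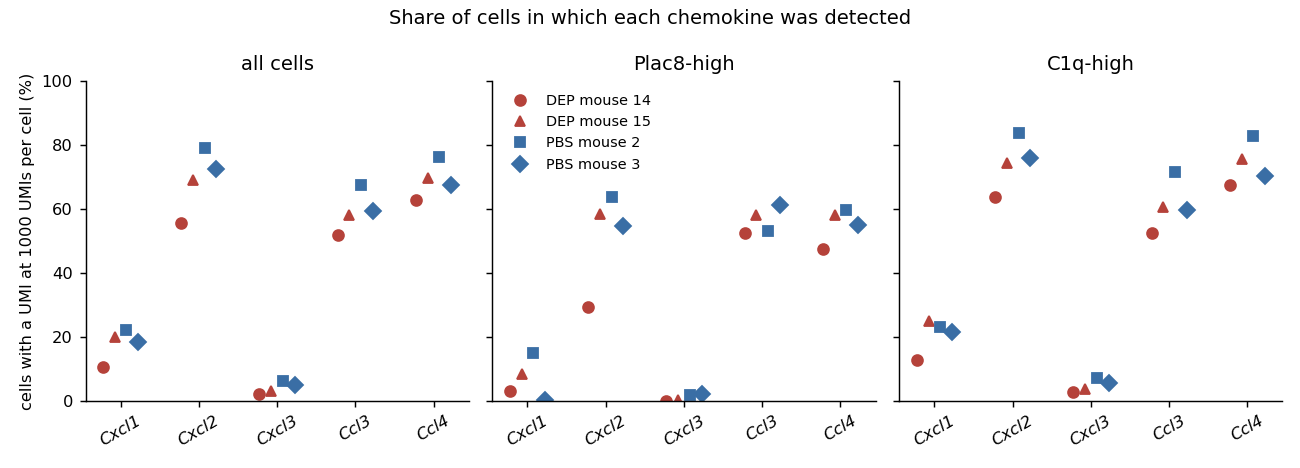
Share of cells with a UMI of each gene at 1000 UMIs per cell (y axis, percent), by mouse, in all cells, Plac8-high cells and C1q-high cells. Over all cells Cxcl2, Ccl3 and Ccl4 were found in 51.7% to 79.2% of cells of a mouse, Cxcl1 in 10.6% to 22.2% and Cxcl3 in 2.09% to 6.31% of all cells.

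Cells were next divided by stage. Plac8 is expressed by monocytes and C1qa, C1qb and C1qc by resident macrophages. Cells with at least 2 UMIs of Plac8 were called Plac8-high (208 cells) and cells with at least 0.5% of their UMIs from the 3 C1q genes C1q-high (764 cells). In total 61 cells belonged to both and 32 to neither. By mouse, Plac8-high cells numbered 55, 79, 38 and 36 and C1q-high cells 149, 251, 176 and 188 in mice 14, 15, 2 and 3. The 9 monocyte markers other than Plac8, which the rule used, summed to between 1887 and 3218 CPM in Plac8-high cells and between 258 and 452 CPM in C1q-high cells, and all 9 were detected in both. The sorted cells were therefore called by these rules rather than by a cell type. With secreted immunoglobulin genes not counted, cells with at least 3 markers of another class made up 13 of the 208 Plac8-high cells. Of these 13, 5 had B lineage, 4 epithelial and 4 stromal markers. Among the 764 C1q-high cells there were 7. The marker rule of the tests below did count secreted immunoglobulin genes, and it kept 161 Plac8-high and 509 C1q-high cells.

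Cxcl1, Cxcl2, Cxcl3 and Ccl4 stood higher in C1q-high than in Plac8-high cells of all 4 mice, whereas Ccl3 did not differ in a common direction. Cxcl1 had a mean of 439 ± 190 CPM (SD, n = 4) in C1q-high cells and 139 ± 137 CPM in Plac8-high cells, a ratio of the means of 3.16. It stood at 52.6, 315, 177 and 11.05 CPM in the Plac8-high cells of mice 14, 15, 2 and 3 and at 192, 637, 522 and 405 CPM in their C1q-high cells. In mouse 3 the Plac8-high cells held 2 Cxcl1 UMIs, and the ratio there was 36.6 (95% counting interval 10.1 to 304). Intervals and floors here cover counting error only.

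Cxcl2 had a mean of 2811 ± 1105 CPM in Plac8-high cells and of 4936 ± 1326 CPM in C1q-high cells (ratio 1.76). By mouse it stood at 1363, 4036, 3066 and 2778 CPM against 3173, 5945, 5969 and 4655 CPM in mice 14, 15, 2 and 3. Cxcl3 had a mean of 18.5 ± 19.5 CPM against 59.2 ± 31.3 CPM (ratio 3.21), from 0, 2, 6 and 4 UMIs in the Plac8-high cells and 28, 43, 70 and 62 UMIs in the C1q-high cells. In mouse 14, where the Plac8-high cells held 0 UMIs, Cxcl3 was at least 2.68-fold higher in C1q-high cells with a floor of 3 UMIs, and the exact lower counting limit of the ratio was 2.04. In mouse 15 the ratio was 5.33 (95% counting interval 1.39 to 45.4), in mouse 2 it was 2.35 (1.03 to 6.61) and in mouse 3 it was 2.62 (0.972 to 9.91), which includes 1.

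The Ccl pair separated here. Ccl4 stood at 2306, 2887, 2757 and 2805 CPM in the Plac8-high cells of mice 14, 15, 2 and 3 and at 3865, 5463, 6045 and 3819 CPM in their C1q-high cells (means 2689 ± 261 and 4798 ± 1129, ratio 1.78). Ccl3 stood at 1859, 1964, 1253 and 1701 CPM in Plac8-high cells and at 1562, 2324, 2449 and 1638 CPM in C1q-high cells. It was higher in C1q-high cells in 2 of 4 mice and lower in the other two, with means of 1694 ± 313 and 1993 ± 458 CPM that did not differ beyond their spread.

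**Figure D3:**
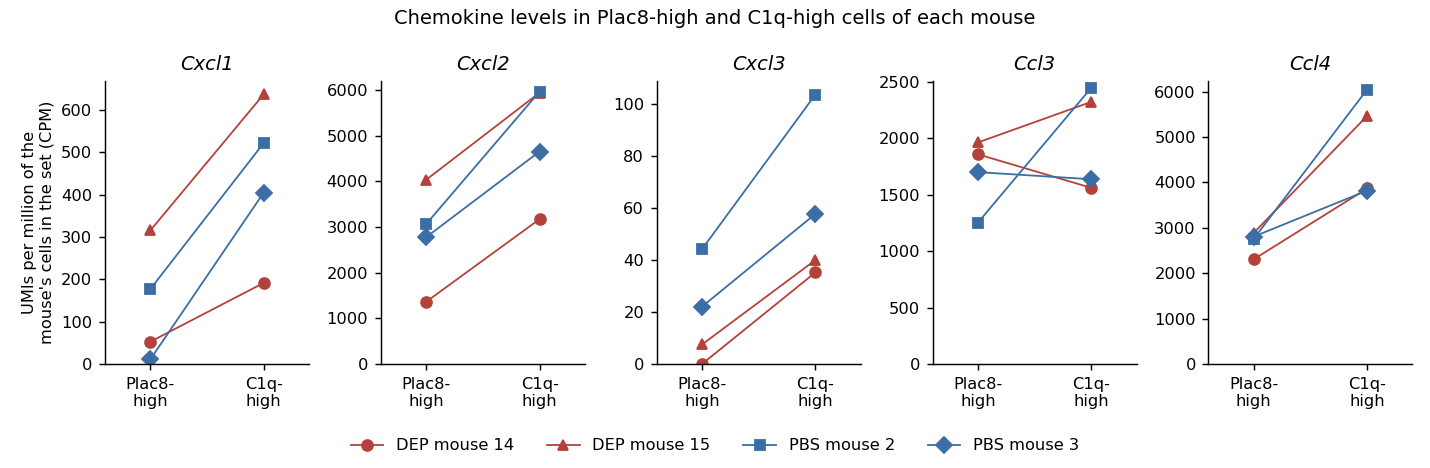
Level of each gene in CPM (y axes from 0) in the Plac8-high and C1q-high cells of each mouse, joined by a line per mouse, in DEP (red) and PBS (blue). The C1q-high value is the higher in all 4 mice for Cxcl1, Cxcl2, Cxcl3 and Ccl4, and in 2 of 4 for Ccl3.

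Leaving out the 61 cells that met both rules raised the ratio of means most for the 2 least abundant genes. The ratio of means became 6.03 for Cxcl1 and 6.17 for Cxcl3, against 1.91 for Cxcl2, 2.26 for Ccl4 and 1.10 for Ccl3. The Cxcl3 ratio rested on 0, 1, 1 and 2 UMIs in these Plac8-high cells of mice 14, 15, 2 and 3. Its counting interval was 1.36 to 324 in mouse 15 and 1.19 to 275 in mouse 2. In mouse 3 the Cxcl3 interval was 0.818 to 26.1, which includes 1. In mouse 14 the exact lower counting limit for Cxcl3 was 1.39. In mouse 3, where these Plac8-high cells held 0 Cxcl1 UMIs, Cxcl1 was at least 14.8-fold higher in C1q-high cells with the same floor, and the exact lower counting limit was 12. In this comparison 4 of the 5 genes were higher in C1q-high cells in all 4 mice, and 0 were lower in all 4. The 4 genes include Cxcl3, on the few UMIs given above. Of 5614 genes, 14.5% were higher and 21.8% lower in all 4 mice. The C1q-high cells outside the overlap gave 86.1% to 99.5% of the Cxcl1 UMIs of a mouse and 73.8% to 83.4% of all its UMIs. They gave 83.0% to 90.0% of the Cxcl2, 84.2% to 91.0% of the Ccl4 and 71.7% to 90.2% of the Ccl3 UMIs. Of the 7 Cxcl1 UMIs in such Plac8-high cells of mouse 14, 6 came from 1 cell with UMIs of 6 of 8 stromal markers. In Plac8-high cells stromal markers summed to 491 and 781 CPM upon DEP and to 14.7 and 22.1 CPM upon PBS, epithelial markers to 2021 and 214 CPM against 1039 and 16.6 CPM, and B or plasma cell markers to 28700 and 1472 CPM against 1128 and 53480 CPM. Their part in the level of the 5 genes was not tested.

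Within the C1q-high cells of each mouse, the level of the Ccl pair moved with other chemokines. In the 50% of cells with the higher share of Ccl2, Ccl7 and Ccl12, Ccl4 was 1.4 to 1.68 times and Ccl3 1.36 to 1.83 times as high as in the others. Cxcl2 was 1.06 to 1.47 times as high there, while Cxcl1 was between 0.937 and 1.24 times. In the 50% of cells with more MHC class II UMIs, Cxcl1 was 1.16 to 1.38 times and Cxcl2 1.06 to 1.37 times as high in all 4 mice, and Ccl4 was between 0.891 and 1.07 times. A division by Pf4 and Ccl8 gave no common direction over the 4 mice for any of the 5 genes.

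Pairs of the genes were then followed in the same cell. The cells with both were compared with the number expected if the genes fell on the cells of a mouse independently, at 1000 UMIs per cell. This ratio has little room above 1 for genes found in most cells. Cxcl1 and Cxcl2 were found together 1.19 to 1.59 times as often as by independence in the 4 mice (mean 1.35 ± 0.171, SD, n = 4). Cxcl2 and Cxcl3 exceeded expectation by 1.25 to 1.73 times (mean 1.44 ± 0.207). Cxcl1 and Cxcl3 had the highest ratio, 1.39 to 2.27 (mean 1.88 ± 0.382). It rested on only 0.755 to 4.49 cells with both per mouse at this depth, against 0.420 to 2.80 by independence. Ccl3 and Ccl4 were found together 1.14 to 1.29 times as often as by independence (mean 1.21 ± 0.0611). In these 4 pairs the ratio was above 1 in every mouse, as it was for Cxcl2 with either Ccl gene and for Cxcl3 with Ccl4. Within C1q-high cells the ratio was 1.17 to 1.45 for Cxcl1 and Cxcl2, 1.18 to 1.52 for Cxcl2 and Cxcl3, 1.36 to 1.85 for Cxcl1 and Cxcl3 and 1.09 to 1.25 for Ccl3 and Ccl4. Within Plac8-high cells it was 1.35 to 1.80 for Cxcl1 and Cxcl2 and 1.21 to 1.35 for Ccl3 and Ccl4. Cxcl1 and Cxcl3 had 0 to 0.495 there in the 3 mice with a Cxcl3 UMI, but 0 to 4.39 from the full counts. That pair rested on 2, 6 and 4 Cxcl3 UMIs in mice 15, 2 and 3, too few to give a direction.

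Pairs across the families stood closer to 1 by their means, but their ranges overlapped that of Ccl3 and Ccl4. The highest of these means, 1.18 for Cxcl3 with Ccl4, lay near the 1.21 of Ccl3 and Ccl4. The ratio was 1.05 to 1.19 for Cxcl2 with Ccl3 and 1.05 to 1.20 for Cxcl2 with Ccl4. It was 0.984 to 1.25 for Cxcl1 with Ccl3 and 0.893 to 1.20 for Cxcl1 with Ccl4, on either side of 1. Cxcl3 gave 0.929 to 1.24 with Ccl3 and 1.08 to 1.27 with Ccl4.

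The levels in single cells followed this grouping only in part, since Cxcl2 was more closely related to both Ccl genes than Cxcl1 was to Cxcl3. Across the 943 cells, with log2(UMIs per 10000 + 1) centred within each mouse, Pearson's r was 0.603 for Ccl3 and Ccl4, 0.420 for Cxcl1 and Cxcl2, 0.336 for Cxcl2 and Cxcl3 and 0.215 for Cxcl1 and Cxcl3. It was 0.328 for Cxcl2 and Ccl4, 0.298 for Cxcl2 and Ccl3 and between 0.0886 and 0.142 for the pairs of Cxcl1 or Cxcl3 with Ccl3 or Ccl4. The cells share a library and vary in depth, so these values are a description. By mouse the range was 0.589 to 0.625 for Ccl3 and Ccl4 and 0.350 to 0.463 for Cxcl1 and Cxcl2, and it crossed 0 for Cxcl1 with Ccl3, Cxcl1 with Ccl4 and Cxcl3 with Ccl3. In Plac8-high cells r was 0.475 for the Ccl pair and 0.231 for Cxcl1 and Cxcl2, against 0.623 and 0.432 in C1q-high cells.

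**Figure D4:**
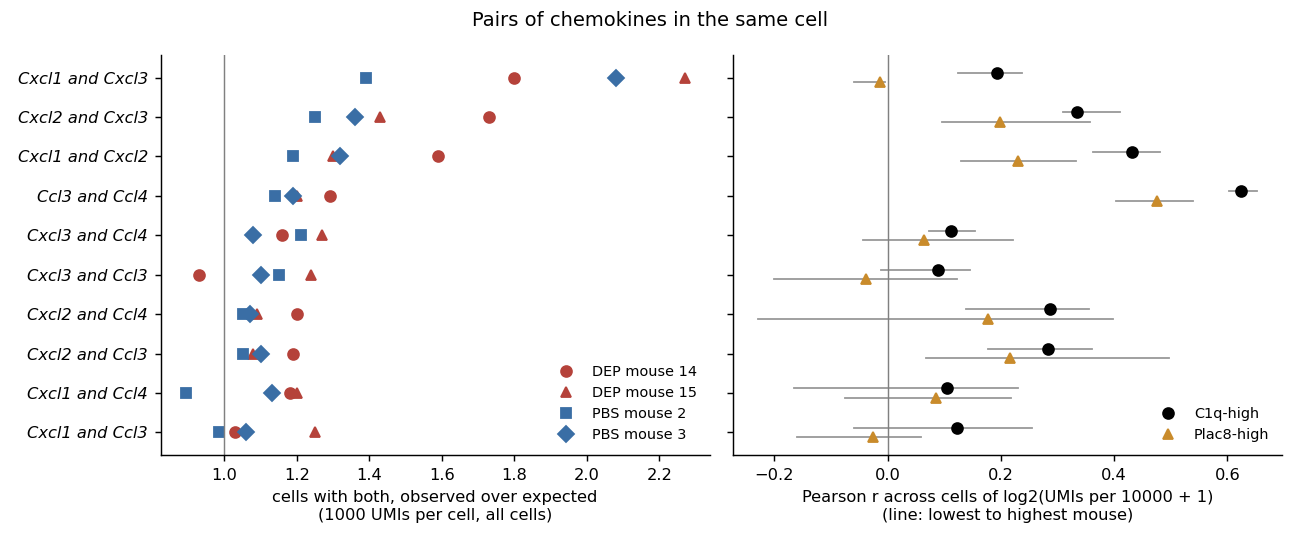
Left, cells with both genes of a pair over the number expected (x axis, 1 is expectation) per mouse at 1000 UMIs per cell. Right, Pearson's r across cells in C1q-high (circles) and Plac8-high cells (triangles), with a line from the lowest to the highest mouse. On the left the pairs within a family reach the highest ratios, up to 2.27 for Cxcl1 and Cxcl3, and on the right Ccl3 and Ccl4 have the highest r (0.623 in C1q-high cells) while Cxcl1 and Cxcl3 (0.194) lie below Cxcl2 with Ccl3 or Ccl4.

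Genes most like the summed 5 genes were sought over the 648 cells kept by a marker rule and 5106 genes. This sum mostly reflects Cxcl2, Ccl4 and Ccl3, which gave most of its UMIs. The 10 with the highest r were H3f3b (0.409), Junb (0.398), Cd83 (0.394), Zfp36 (0.374), Nfkbia (0.355), Cd14 (0.340), Ccrl2 (0.336), Rgs1 (0.327), Socs3 (0.325) and Tnfaip3 (0.309). Nfkbia and Tnfaip3 encode inhibitors of NF-kB, Zfp36 a protein that destabilises cytokine mRNA, Junb a subunit of AP-1 and Cd14 a co-receptor for lipopolysaccharide. Over all 943 cells 8 of these 10 genes were again among the top 10, and among C1q-high cells also 8, but among Plac8-high cells 5.
The genes most like each member differed between the families. Cxcl1 was followed by Cxcl2 (0.404), Cd83 (0.276) and Bcl2a1b (0.252), and Cxcl3 by Cxcl2 (0.318), Cxcl1 (0.225) and Cd83 (0.199). Cxcl2 was followed by Cd83 (0.450), Cxcl1 (0.404) and Junb (0.384). Ccl3 was followed by Ccl4 (0.568), H3f3b (0.281) and Cxcl2 (0.280), and Ccl4 by Ccl3 (0.568), the chemokine gene Ccl12 (0.342) and the metallothionein gene Mt1 (0.316). Bcl2a1b has near-identical copies, among which reads may be divided. Cd83, a surface protein of activated myeloid cells, was among the 3 genes most like each Cxcl gene over these cells and over all 943, but within C1q-high cells for Cxcl2 alone and within Plac8-high cells for none. Within Plac8-high cells 0 of the 3 genes were shared for each Cxcl gene and 1 of 3 for each Ccl gene.

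Whether DEP changed the 5 genes was tested on UMIs summed per mouse, by the quasi-likelihood test of edgeR, with p-values adjusted by the Benjamini-Hochberg method over all genes tested. In such sums, fewer cells that express a gene and less RNA per cell cannot be told apart. The test used cells without markers of another class. That rule counted secreted immunoglobulin transcripts, of which Igkc was found in 56.7% of all cells (median 1 UMI), and so left 648 cells. It removed 78 and 135 cells upon DEP and 31 and 51 cells upon PBS. The removal was thus unequal between the groups, and each value is given beside that of all 943 cells.

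No member passed an adjusted p under 0.05 over all cells. Each of the 5 had a lower value upon DEP, at a median log2 fold change of -0.37 against -0.01 for all 5106 genes tested. The make-up of the cells differed as well. Plac8-high cells made up 29.1% and 23.7% of the deposited cells of mice 14 and 15 and 19% and 16.4% of those of mice 2 and 3, and 4 of the 5 genes were lower in Plac8-high cells. Plac8, which defines this set, was itself the only gene called over all 943 cells, higher upon DEP. Within Plac8-high cells it stood at 3796 and 3875 CPM upon DEP and at 2233 and 2435 CPM upon PBS. The Plac8 cut may thus select different cells in the 2 groups, here and in the tests by cell set, which was not tested. B or plasma cell markers summed to 21780 and 30310 CPM upon DEP and to 1531 and 8701 CPM upon PBS over all deposited cells. The part of this make-up in the differences over all cells was not tested. Cxcl3 had the largest difference, with a log2 fold change of -1.38 (SE 0.357, edgeR adjusted p = 0.171) in the 648 cells and -1.14 (SE 0.295, adjusted p = 0.781) in all 943 cells. Cxcl2 had -0.43 (SE 0.259, edgeR adjusted p = 0.733) and -0.31 (SE 0.241, adjusted p = 0.864). Cxcl1, Ccl4 and Ccl3 had -0.37, -0.26 and -0.14 in the 648 cells (edgeR adjusted p of 0.867, 0.750 and 0.875). Without mouse 14 the values of Cxcl1, Cxcl2, Ccl3 and Ccl4 turned to 0.37, 0.092, 0.070 and 0.0050, whereas that of Cxcl3 was -0.95. Without mouse 15 the values were -2.20 for Cxcl1, -1.26 for Cxcl2, -2.25 for Cxcl3, -0.38 for Ccl3 and -0.59 for Ccl4. In that fit the lone DEP mouse is assumed to vary like the PBS mice. Cxcl3 passed the threshold without the filter (edgeR adjusted p = 0.00614), where Cxcl2 passed as well at -0.41 (adjusted p = 0.0391). It also passed by the likelihood ratio test (adjusted p = 0.0256), but not by DESeq2. Without the filter 78 of 12270 genes were called, and by the likelihood ratio test 31 of 5106. Without mouse 3 Cxcl3 had -1.66. Its value was negative in 13 of 13 settings, but these reuse the same 4 mice, so that the common sign is no separate support. Of 5106 genes 0.353% were called in the 648 cells, and of 5582 genes 0.0179% in all 943.

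In C1q-high cells the differences were of the same kind. Cxcl3 had a log2 fold change of -1.19 (SE 0.345, edgeR adjusted p = 0.283) and, with all deposited cells, -1.05 (SE 0.285, adjusted p = 0.502). Over all deposited C1q-high cells it stood at 35.3 and 40.04 CPM upon DEP against 104 and 57.8 CPM upon PBS, and 17.5% of 5722 genes had both DEP mice below both PBS mice. The other 4 genes lay between -0.31 for Cxcl2 and -0.13 for Cxcl1, with edgeR adjusted p between 0.862 and 0.977. Without mouse 15, again with a lone DEP mouse, the values of the 5 genes ran from -1.996 for Cxcl3 to -0.61 for Ccl4. Without mouse 14 the genes other than Cxcl3 turned to values between 0.14 and 0.61. The test called 0.192% of 5201 genes in the cells kept by the rule and 0.0175% of 5722 genes in all of them.

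In Plac8-high cells kept by the rule Ccl3 and Ccl4 had higher values upon DEP, but not past the threshold. Over all deposited Plac8-high cells the Ccl3 level of either DEP mouse exceeded that of either PBS mouse, as for 21.2% of 5277 genes, and the groups overlapped for Ccl4. Ccl3 had a log2 fold change of 0.55 (SE 0.209, edgeR adjusted p = 0.914) in cells kept by the rule and 0.32 (SE 0.209, adjusted p = 0.918) in all deposited Plac8-high cells. Ccl4 had 0.63 (SE 0.224, edgeR adjusted p = 0.914) and turned to -0.15 (SE 0.192, adjusted p = 0.955). Cxcl2 had -0.28 (SE 0.399, edgeR adjusted p = 0.958), and -1.43 without mouse 15, while Cxcl1 had 0.42 (SE 1.13, adjusted p = 0.980). Cxcl3 did not pass the filter there, at 0 and 2 UMIs upon DEP against 6 and 4 upon PBS over all deposited cells, and 15% of 5277 genes had both DEP mice below both PBS mice. Of 4623 genes the test called 0% in the cells kept by the rule, with 229 genes at an unadjusted p under 0.05, while DESeq2 called 0 and the likelihood ratio test 4. It called 0.0379% of 5277 genes in all deposited Plac8-high cells.

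**Figure D5:**
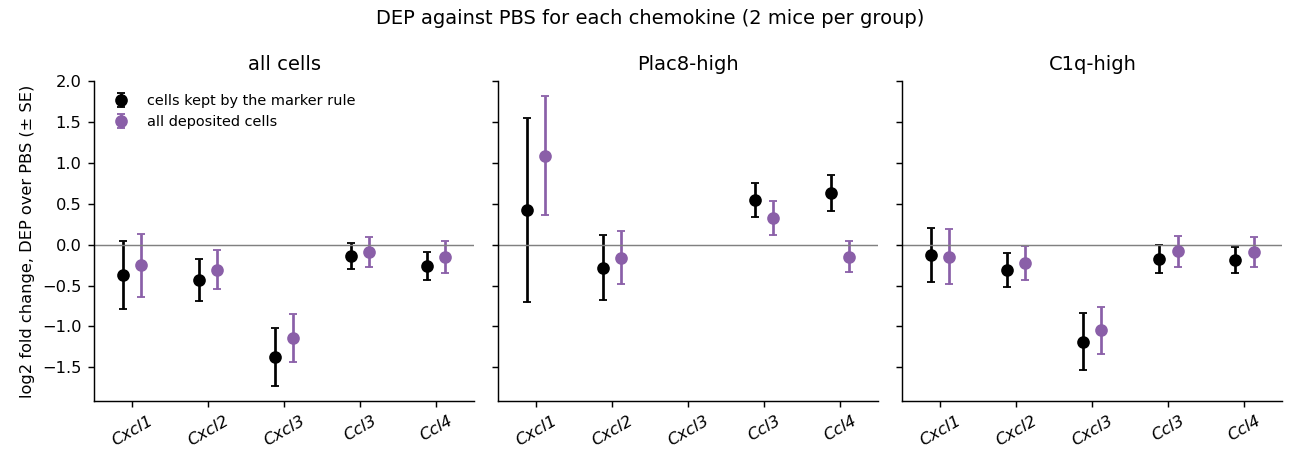
Log2 fold change of DEP over PBS (y axis, error bars SE of edgeR's quasi-likelihood fit, 2 mice per group) in all, Plac8-high and C1q-high cells, for the cells kept by the marker rule (black) and all deposited cells (violet). Cxcl3 lay lowest at -1.38 and -1.19 in all and C1q-high cells, and Ccl4 changed sign between the black and violet points in Plac8-high cells.

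The difference of the DEP effect between Plac8-high and C1q-high cells was tested in 1 model with the mouse as a block, without cells that met both rules. Ccl4 was the only member past the threshold, with a difference of 0.96 on the log2 scale (SE 0.208, edgeR adjusted p = 0.00216) in the cells kept by the marker rule. Its level in those cells was 2927 and 3113 CPM upon DEP and 2322 and 1575 CPM upon PBS in Plac8-high cells, against 3652 and 5784 CPM upon DEP and 6132 and 4606 CPM upon PBS in C1q-high cells. With all deposited cells the difference was 0.34 (SE 0.282, edgeR adjusted p = 1), so that the call was present only after the unequal removal of cells described above. It was also lost without mouse 14 (0.66, adjusted p = 0.695), without mouse 2 (0.98, adjusted p = 0.967) and without the block (0.94, adjusted p = 0.533). Ccl3 had 0.63 (SE 0.221, edgeR adjusted p = 0.367), and 1.15 without mouse 15, and Cxcl1, Cxcl2 and Cxcl3 had adjusted p between 0.933 and 1. The test called 0.369% of 5148 genes in the cells kept by the rule and 0.0534% of 5614 genes in all deposited cells.

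The shares of cells with a UMI at 1000 UMIs per cell were compared by an exact two-sided permutation test over mice, whose smallest possible p with 2 mice against 2 is 0.333. Among the 15 comparisons (5 genes in all, Plac8-high and C1q-high cells kept by the rule) this value was reached by Cxcl3 in all 3 sets and by Cxcl2 and Ccl3 in all and in C1q-high cells, each with both DEP mice lower. Of all genes tested, 15.6% had this order in all cells, 15.7% in Plac8-high and 16.3% in C1q-high cells. After adjustment over the 15 comparisons no exact p was below 0.714. For Cxcl2 the mean share of all cells kept by the rule was 59.9% ± 12.0 upon DEP and 76.2% ± 4.93 upon PBS (SD, n = 2), and for Cxcl3 it was 2.07% ± 1.33 and 5.85% ± 0.730. With all deposited cells the shares of both DEP mice were again the lower for Cxcl3 in all 3 sets, for Cxcl2 in all and in C1q-high cells, and for Ccl3 in all cells but not in C1q-high cells, against 16.5%, 15.2% and 15.9% of genes in all, Plac8-high and C1q-high cells.

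Among other genes of the pathway, the receptors Cxcr1 and Cxcr2 of the Cxcl ligands were not analysed here. Ccr1, a receptor of CCL3, was found in 57.2% of C1q-high and 38.9% of Plac8-high cells, at 265 to 335 CPM and 170 to 263 CPM by mouse. Neither Ccr1 nor Ccrl2 passed the threshold in any of the 3 DEP comparisons. Of 14 listed neutrophil markers 5 had a row (Csf3r, Mmp8, Mmp9, Ngp and Il1r2). Their sum lay between 127 and 226 CPM, and Il1r2 made up most of it in every mouse. Only 2 of the 943 cells held at least 3 of these 5 markers. Mmp8, Mmp9 and Ngp had only 26, 34 and 2 UMIs over all cells, so that this count says little about neutrophils.

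Of the 20 related chemokines, 11 were tested over the cells kept by the rule, where none was called over all cells and 3 were higher among C1q-high cells. These were Ccl2, a ligand of CCR2, at a log2 fold change of 0.72 (SE 0.158, edgeR adjusted p = 0.0381), Ccl8 at 0.95 (SE 0.186, adjusted p = 0.0149) and Ccl6 at 0.93 (SE 0.190, adjusted p = 0.0266). With all deposited C1q-high cells none of the related chemokines was called. The median of these 11 genes was 0.72 in C1q-high cells, against -0.19 for the 5 members and 0.01 for all 5201 genes tested. None of the 33 NF-kB early response genes tested among C1q-high cells was called, at a median of -0.02.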

How the data were processed

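Per the labels and methods of the study, 3′ droplet libraries of 1 well per mouse were aligned by the authors with Cell Ranger and STAR 2.6.1a to mm10 with Ensembl annotation, merged without downsampling and filtered on UMIs, genes and mitochondrial share. The authors deposited whole, unnormalized UMI counts per gene and cell, with the mouse in the name of each cell. The lowest cell held 1016 UMIs, so that 0 cells fell below the 1000 UMIs used for shares, and 1 barcode occurred in 2 mice. The authors checked for doublets by simulation with scran, and no caller was run again here. Symbols were matched for 12576 of 12596 Ensembl IDs.

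The members, gene lists and cell rules were chosen with earlier results of these data known. UMI counts were summed per mouse and cell set and tested with edgeR 4.0.16 in R 4.3.3 (TMM, quasi-likelihood), after removing genes that did not exceed 1 CPM in 2 libraries or were found in fewer than 5% of cells. Each comparison was fitted to its own 4 libraries, and the difference between cell sets to 8. DESeq2 1.42.0 and the likelihood ratio test were alternatives. Cells in which 3 or more markers of B or plasma, T, natural killer, epithelial or stromal cells were found did not enter the tests. This left 648 cells, and 911 when secreted immunoglobulin genes were not counted. Shares at 1000 UMIs per cell are hypergeometric expectations, and permutation tests used scipy 1.17.1. Named genes were the members, the 10 genes most like their sum, the 3 most like each, called genes of the fixed lists and the receptors, of which 1 is not reported here. Library depth was 747351 to 1349134 UMIs per mouse. Mice are the replicates. In counts simulated for each comparison, 200 genes were changed by a log2 fold change of 1 or 2 in either direction. The share recovered was 70.5% over all cells (5106 genes), 24.5% in Plac8-high (4623 genes), 61.5% in C1q-high cells (5201 genes) and 9.50% for the difference between them (5148 genes). Recovery of smaller changes, such as those of Cxcl1, Cxcl2, Ccl3 and Ccl4 over all cells, was not simulated. The cell sets of a mouse come from the same animal, which pairs them.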

Additional observations from a re-analysis of the deposited data

Results flagged for a closer look

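Among cells kept by the marker rule, the DEP effect differed between Plac8-high and C1q-high cells, by the model with the mouse as a block, for 8 genes of the fixed lists (edgeR adjusted p under the 0.05 threshold). They were found among the 5 members, 10 related chemokines and 32 NF-kB early response genes tested. Of all 5148 genes the model called 0.369%. Ccl4 differed by 0.96 on the log2 scale. Among related chemokines Ccl7 differed by 2.44, Ccl5 by 2.65 and Ccl6 by -1.11. Among NF-kB early response genes Ptgs2 differed by 2.11, Il1b by 0.98, Bcl2a1d by 1.80 and Bcl2a1b by 2.06, and the Bcl2a1 genes are near-identical copies. None of the 8 was called with all deposited cells, and without the block edgeR called 0 of the 5148 genes (281 at an unadjusted p under 0.05).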

How the results depend on the processing

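The marker rule without secreted immunoglobulin genes, all deposited cells for the difference between cell sets, and the marker rules for levels and co-detection were alternatives chosen after seeing the data. Where a value moved, the cause was not tested. Counts of genes called by edgeR or the named tool moved most. Over all cells they went from 18 to 1 with all deposited cells or the added marker rule, 78 without the filter, 2 by DESeq2 and 31 by the likelihood ratio test. In Plac8-high cells they went from 0 to 2 with all deposited cells, 22 without cells in both sets, 24 without the filter and 4 by the likelihood ratio test. In C1q-high cells they went from 10 to 1 with all deposited cells, 38 without the filter, 17 by the likelihood ratio test, and 0 under a C1q threshold of 0.25% or 1%, without cells in both sets, under the added marker rule and by DESeq2 (47 to 344 genes at an unadjusted p under 0.05). Leaving out 1 mouse gave 15 to 54, 5 to 14 and 0 to 45 genes in all, Plac8-high and C1q-high cells.

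The difference between cell sets pairs the sets of each mouse by a block, from 19 genes to 3 with all deposited cells, 0 without the block (281 at an unadjusted p under 0.05) and 0 to 14 without 1 mouse. Cxcl2 turned from -0.016 to 0.013 without the block and 0.079 without the filter, and ranged from -0.41 to 0.48 without 1 mouse. Cxcl1 turned to 0.55 with all deposited cells and ranged from -5.36 to 6.65 without 1 mouse. The mouse was the only shared unit, and the groups shared no replicate numbers.

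Without 1 mouse, log2 fold changes over all cells ranged from -2.20 to 0.37 for Cxcl1, -1.26 to 0.092 for Cxcl2, -0.38 to 0.070 for Ccl3 and -0.59 to 0.0050 for Ccl4. In C1q-high cells they ranged from -1.94 to 0.61, -1.15 to 0.22, -0.61 to 0.16 and -0.61 to 0.14 for these genes, and Ccl3 was 0.057 and Ccl4 0.0052 without mouse 2. In Plac8-high cells they ranged from -0.61 to 1.34 for Cxcl1 and -1.43 to 0.33 for Cxcl2. There Ccl4 turned to -0.15 with all deposited cells, -0.084 under the added rule and -0.28 at 1 Plac8 UMI, and Cxcl1 to -0.032 at 1 Plac8 UMI and -0.52 without the top cell of each mouse.

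The log2 ratio of C1q-high over Plac8-high means of Cxcl3 moved to 0.86 at 1 Plac8 UMI, 2.63 without cells in both sets, 2.24 without the top cells and 2.21 under the marker rule, and that of Ccl4 to 1.18 without cells in both sets. Of the 60 such ratios, 0 changed sign. In Plac8-high cells the share differences of Ccl3 turned to -1.25 percentage points without thinning and -1.92 with all deposited cells, and those of Ccl4 to -0.18, -4.46 and, under the added rule, -2.74. Without 1 mouse these ranged from -2.57 to 10.3 for Ccl4, -14.1 to 3.52 for Cxcl1 and -28.0 to 2.64 for Cxcl2, and in C1q-high cells from -12.5 to 3.598 for Cxcl1.

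With 2 mice per group an exact test cannot fall below 0.333, and Cxcl3 rested on 210 UMIs.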
